A study of Mus musculus with 53 samples.

Results

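Lung tumours started by lentiviral vectors with an sgRNA against Atm were described in mice of 3 genotypes, next to inert tumours of the same lungs. The members were all tumours listed under the label ATM in mice that had received the pool of vectors, 25301 of the 335123 tumours listed in those 35 mice and of the 409584 listed in the 53 mice of the study. They were chosen by label alone, with no measured value. The 18 mice given a single vector held 0 tumours under this label. They entered no comparison of sizes or numbers, and only the filters on shared barcodes looked for listings in them. The reference was the 91281 tumours of the same 35 mice that carried inert sgRNAs, which are not meant to disrupt any gene of the mouse.

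Each vector carried Cre recombinase, an sgRNA and a barcode of 21 bases. It was given into the trachea, so that a transduced lung cell and all of its descendants shared a barcode. After 15 weeks DNA was extracted from the whole lung, the barcodes were amplified and sequenced as 1 library per mouse, and the authors turned the reads into cells per tumour. The pool held sgRNAs against 11 tumour suppressor genes and the inert sgRNAs.

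All mice carried K, T and C. Strains of this kind are usually named so that T is a reporter that makes transduced cells fluoresce and C stands for Cas9. KTC mice (n = 10) carried nothing further. KPTC mice (n = 12) also carried P, which lets Cre delete p53, and KLTC mice (n = 13) carried L, which lets Cre delete Lkb1. KPTC tumours therefore lack p53 from the start, and KTC and KLTC tumours begin with it. Ages and sexes of the mice and the number of sgRNAs per gene are not stated in the sources, and the table does not record whether Atm was cut in a tumour. Its cells are known only by their barcode, so no marker of the lung epithelium could be checked.

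ATM is a large protein kinase that is activated by DNA double-strand breaks. It phosphorylates p53, its negative regulator Mdm2, the checkpoint kinase Chk2 and histone H2AX, and through them halts the cell cycle and promotes repair. p53 is the transcription factor at the end of this branch, while the product of Arf, encoded at Cdkn2a, stabilises p53 in response to oncogenes by holding Mdm2. ATM is mutated in a part of human lung adenocarcinomas. The genotypes let the growth of ATM tumours be compared with and without p53.

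ATM tumours numbered 78 in the KTC mouse with the fewest, 1195.5 in the median and 2026 in the highest. In KPTC mice the values were 256, 771.5 and 2285, and in KLTC mice 32, 212 and 1047. Behind each ratio stood 482 to 7195 inert tumours in a KTC mouse, 1069 to 8178 in a KPTC mouse and 171 to 4279 in a KLTC mouse. KLTC values therefore rest on the fewest tumours, and the 3 genotypes overlapped in number. Sizes below 500 cells are not in the table, and the smallest listed size of a mouse was at most 935 cells (KTC), 982 (KPTC) or 611 (KLTC).

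The opening letters of the mouse names differed between genotypes and their meaning is not stated. KTC had 8 mice with IW and 2 with MW, KPTC had 5 with no letters and 7 with IW, and KLTC had 7 with IW and 6 with ZR. Results between genotypes are therefore also given for the IW mice alone.

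The same ATM barcode was often listed in several mice. The 25301 tumours carried 14253 barcodes, of which 41.1% were listed in 2 or more mice, the highest share of the 12 labels. Inert barcodes reached 23.6%, those of APC 39.7%, and the lowest label, Cdkn2a, 5.09%. The share rose with the largest size at which a barcode was listed. It was 16.1% for ATM barcodes that stayed under 1000 cells (n = 4169), 47.4% from 1000 to 10000 cells (n = 8373), 67.5% from 10000 to 100000 (n = 1363), 87.8% from 100000 to 1000000 (n = 312) and 94.4% from 1000000 cells (n = 36). Inert barcodes went from 8.93% to 99% over the same classes. The largest ATM tumours were thus nearly always listed in other lungs as well, at far smaller sizes.

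The barcodes of the largest ATM tumours are printed because they show what such a shared listing looks like. Lower case marks the fixed bases of the design and capitals the 15 random bases, a pattern that 92.3% of ATM tumours matched in full. The first 3 were the largest ATM tumours of KPTC, KTC and KLTC, and the last was the largest of KPTC whose barcode was listed in 1 mouse.
KPTC replicate 12: aaCTACGttGATCGaaGCAAG
KTC replicate 1: aaGGCCGttGTGGTaaACTCG
KLTC replicate 12: aaTCGCCttACGACaaTTAAG
KPTC replicate 7: aaGGAAGttACGTTaaCTATG

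The barcode of KPTC replicate 12 was listed there at 11362069 cells and in 14 other mice at 625.4 to 9637 cells. That of KTC replicate 1 was listed at 7960264 cells and in 10 other mice at 805 to 10817 cells, and that of KLTC replicate 12 at 4192180 cells and in 12 other mice at 573 to 9636 cells. The barcode of KPTC replicate 7 was listed at 1120131 cells and nowhere else. For the 3 shared barcodes the highest of the other listings was 0.0848%, 0.136% and 0.230% of the largest, so a single lung stood far above all others.

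Over all ATM barcodes that reached 100000 cells in KLTC (n = 187), the other listings had a median size of 0.319% of the largest, against 0.463% in KTC (n = 74) and 0.282% in KPTC (n = 87). Other KLTC mice held 30.1% of the listings that the KLTC barcodes could have had there, against 14.6% in KTC mice and 6.95% in KPTC mice. Barcodes from large KLTC tumours were thus found most often in other KLTC lungs. In the other genotypes, too, the share was highest among their own mice. These shares are not scaled to the ATM tumours that a mouse lists, a median of 1195.5 in KTC, 771.5 in KPTC and 212 in KLTC. They therefore do not show that KTC or KPTC barcodes favoured their own genotype. Barcodes of large KTC tumours held 15.5% of possible listings in KTC, 11.9% in KPTC and 4.26% in KLTC mice. Those of KPTC held 13.4% in KPTC, 10.6% in KTC and 3.71% in KLTC mice. Matched tumours were those with the same label and barcode in another of the 53 mice at a size at least 10-fold larger. They made up a median of 9.55% of ATM and 6.30% of inert tumours per mouse in KTC, 11.2% and 7.65% in KPTC, and 31.7% and 28.7% in KLTC. ATM had 0 listings in the 18 mice given a single vector, so a label listed there could be matched in more lungs than ATM. In each genotype the share was higher for ATM in the median mouse, and the results whose call changes without matched tumours are named below.

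**Figure D1:**
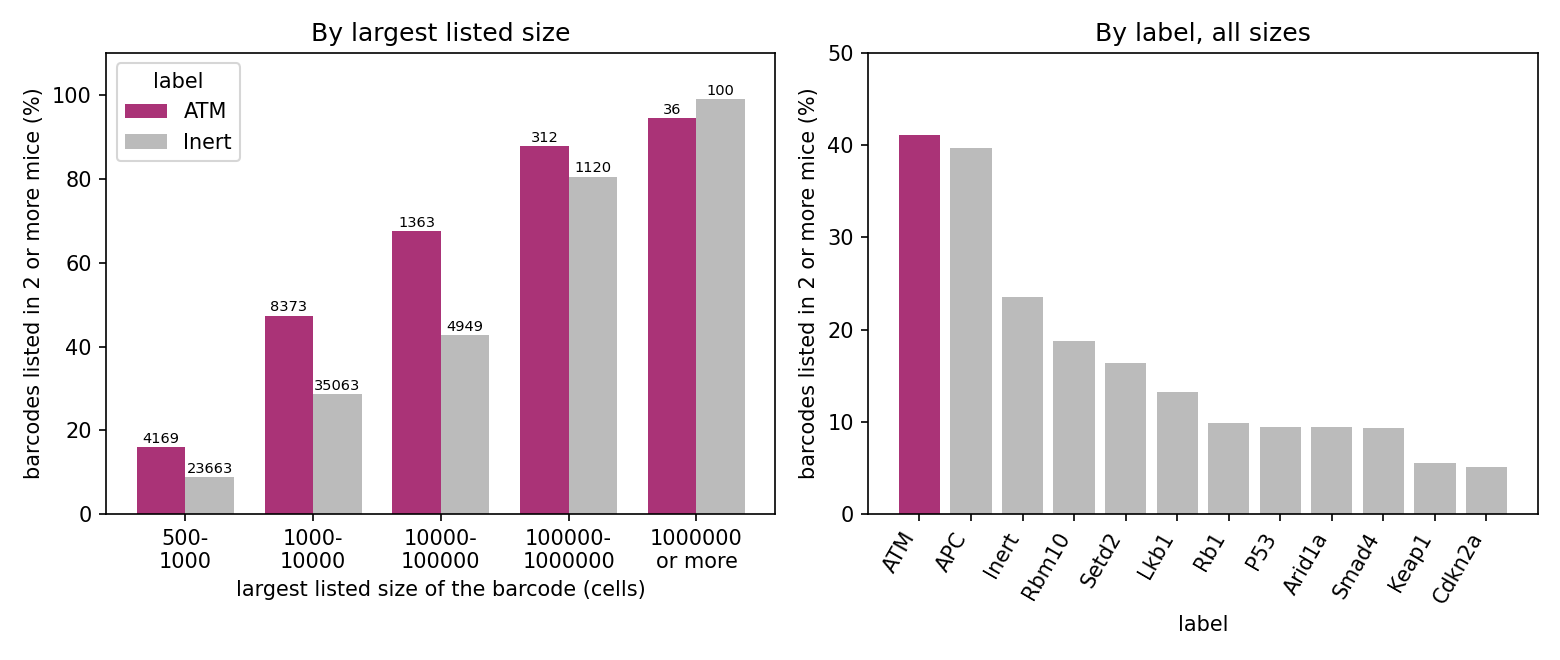
Percent of barcodes listed in 2 or more of the 35 mice (vertical axes), by the largest listed size of the barcode in cells for ATM and inert barcodes with the number of barcodes above each bar (left), and by label over all sizes (right). ATM rises from 16.1% to 94.4% over the size classes and, at 41.1% over all sizes, stands above the other labels, with APC at 39.7%.

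In p53-intact KTC mice, the mean size of ATM tumours was close to that of inert tumours, and no difference passed the test. Their log-normal mean size, a mean that damps the weight of a few very large tumours, was lowest at 1055 cells, 2733 in the median mouse and 3569 in the highest, and that of inert tumours ranged from 1179 to 3624. The log2 ratio of ATM to inert tumours within a mouse, called the size effect here, ranged from -0.16 to 0.31 with a median of -0.0034 and was above 0 in 5 of 10 mice. The mice lay evenly on both sides of no effect. The mean was 0.01 ± 0.13 (SD, n = 10), a ratio of 1.01, and did not pass the two-sided exact sign-flip permutation test (adjusted p = 0.871, Benjamini-Hochberg over 11 targets). In the same test 45.5% of the targets were larger than inert tumours, and the mean of ATM ranked 10 of 11 from the highest. Each barcode was then kept only in its largest mouse, which left out a median of 41.2% of ATM and 28.9% of inert tumours. The KTC size effect was then 0.26 and passed (adjusted p = 0.0036, exact). This filter takes out the smaller listings of shared barcodes, and more of them from ATM, so the value is no support for a difference.

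In p53-deleted KPTC mice, ATM tumours were slightly larger than inert tumours. The log-normal mean size of ATM tumours was 1276 cells in the lowest mouse, 2226 in the median and 5778 in the highest, and that of inert tumours ranged from 1360 to 5001. The size effect ranged from -0.09 to 0.37 with a median of 0.14 and was above 0 in 10 of 12 mice. The values of KTC and KPTC mice overlapped over most of their range. The mean was 0.14 ± 0.14 (SD, n = 12), 1.10-fold, and differed from 0 (exact sign-flip p = 0.00488, adjusted p = 0.00767). In this genotype 72.7% of the targets were larger, so the call did not set ATM apart, and its mean ranked 7 of 11 from the highest. It was kept when any of the 12 mice was left out (0.12 to 0.16). Without matched tumours it was 0.18, but that filter takes out the smaller listings of a barcode, and more of them from ATM than from inert tumours, so this value is no support for the call. The call was lost with a minimum size of 1000 cells (0.08, adjusted p = 0.172, exact). At 1500 cells the value was 0.018 (adjusted p = 0.757, exact) and at 5000 cells -0.021 (adjusted p = 0.936, exact). The call was also lost in the 7 IW mice alone (0.12, adjusted p = 0.0573, exact). With barcodes listed in 1 mouse only it was lost too (0.11, adjusted p = 0.208, exact). That setting leaves out a median of 67.0% of ATM and 48.8% of inert tumours. Of barcodes that reached 10000 to 100000 cells, 67.5% of ATM and 42.8% of inert ones were listed in 2 or more of the 35 mice. The setting thus takes out more large ATM than inert tumours by construction. Its values therefore cannot decide on larger or smaller ATM tumours, here or below.

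In KLTC mice, which keep p53 and lose Lkb1, the ratio varied too widely to place ATM above or below inert tumours. The log-normal mean size of ATM tumours ran from 1371 cells through a median of 7839 to 77073 cells, and that of inert tumours from 1824 to 70047. The size effect ranged from -0.95 to 1.05 with a median of 0.06, above 0 in 7 of 13 mice. Its mean was -0.03 ± 0.59 (SD, n = 13; adjusted p = 0.836, exact sign-flip test), and 9.09% of the targets were larger. The SD of 0.59 stood against 0.13 in KTC and 0.14 in KPTC, so an effect of the size found in KPTC was not detectable here.

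**Figure D2:**
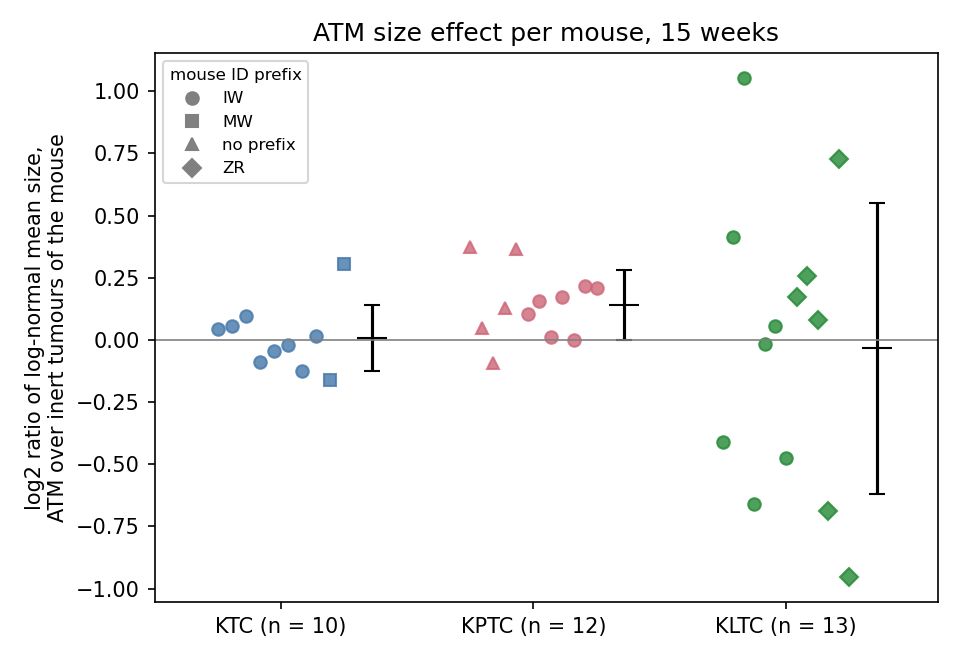
Size effect of ATM, as the log2 of its log-normal mean size over the inert one in each mouse (vertical axis), in KTC, KPTC and KLTC mice (horizontal axis), with a point per mouse shaped by the opening letters of its name and bars for the mean and SD. The means are 0.01, 0.14 and -0.03, with 5 of 10, 10 of 12 and 7 of 13 mice above 0, and KLTC mice spread from -0.95 to 1.05.

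The sizes at which ATM and inert tumours parted were read from the percentiles of each mouse, tested by the same exact sign-flip permutation test with adjustment over 11 targets and 5 percentiles. In KPTC mice the 50th, 75th and 90th percentiles of ATM tumours were higher than those of inert tumours. The 75th percentile of ATM tumours ran from 1247 cells through a median of 1821 to 4886, and that of inert tumours from 1246 through 1682 to 4398. The log2 ratio was above 0 in 12 of 12 mice, from 0.00081 to 0.31, and averaged 0.14 ± 0.11 (SD, n = 12; adjusted p = 0.00207, exact). The median tumour was higher by 0.09 ± 0.12 (11 of 12 mice, adjusted p = 0.00298, exact). Its log2 ratios ran from 0 to 0.31 with a median of 0.04, so some of these mice lay very close to no difference. The 90th percentile was higher by 0.23 ± 0.21 (11 of 12, adjusted p = 0.00424, exact). In this genotype 56.4% of all target percentiles were higher.

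At the upper end of the KPTC sizes the difference did not pass. The 95th percentile gave 0.13 ± 0.20 (8 of 12 mice) and the 99th 0.42 ± 0.63 (9 of 12), each with an adjusted p of 0.0698 (exact). Leaving out KPTC replicate 3 took the 95th percentile past the threshold (0.16), and leaving out KPTC replicate 2 did so for the 99th (0.54). Without matched tumours the 95th also passed (0.19, adjusted p = 0.0423, exact). That filter takes out more of the smaller ATM than inert listings, so this pass is no support. The 3 called percentiles missed the threshold in the IW mice alone, at 0.08, 0.11 and 0.17, and at a minimum size of 1500 cells, at 0.064, 0.037 and -0.0042, or 5000 cells, at 0.010, 0.12 and -0.061. The median and the 90th percentile also did so at 1000 cells, at 0.04 and 0.05, and the 75th and 90th with barcodes listed in 1 mouse only, at 0.078 and 0.15 (adjusted p = 0.432 and 0.333, exact).

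In KTC and KLTC mice no percentile of ATM tumours passed the test with all listed tumours. In KTC the mean log2 ratios were 0.02, 0.04, -0.03, -0.12 and 0.04 from the 50th to the 99th percentile, while 29.1% of target percentiles were higher. The KTC 75th percentile passed without matched tumours (0.071, adjusted p = 0.0358, exact). With each barcode kept only in its largest mouse the KTC 50th and 75th passed, at 0.25 and 0.30 (adjusted p = 0.0057 each, exact). Both filters take out more of the smaller ATM than inert listings, so these passes are no support for larger ATM tumours. In KLTC the mean log2 ratios were 0.09, 0.09, 0.14, -0.11 and -0.41, and 3.64% of target percentiles were higher. At the 90th and 95th percentile in KTC the mean of ATM was the lowest of the 11 targets.

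The share of tumours at or above a fixed size needs no model of the distribution. In KTC mice 25.6% of ATM tumours held at least 1000 cells in the lowest mouse, 54.4% in the median and 69.2% in the highest, against 25.5%, 51.4% and 66.4% of inert tumours. Within a mouse the ATM share was higher in 10 of 10 mice, by 0.12 to 4.92 percentage points and by 2.04 ± 1.64 on average (SD, n = 10; adjusted p = 0.00977, exact sign-flip test over 11 targets and 5 sizes). The ranges of the raw shares overlapped almost fully, and the difference lay within mice. The highest shares, 69.2% and 66.4%, were those of KTC replicate 5, whose smallest listed tumour held 935 cells, close to this size. In KTC 30.9% of all target shares were higher.

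Above 1000 cells the difference in KTC mice shrank and changed sign. It was 0.62 ± 1.45 points at 2000 cells, -0.10 ± 1.16 at 5000, -0.27 ± 0.69 at 10000 and -0.07 ± 0.30 at 100000, and none of these passed (adjusted p = 0.43 to 0.855, exact). At 100000 cells KTC replicate 3 lay alone at 0.68 points, and without it the share was lower than that of inert tumours by 0.16 points (-0.16, adjusted p = 0.046, exact). The call at 1000 cells was lost with barcodes listed in 1 mouse only, where the value was 2.87 points (adjusted p = 0.125, exact).

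In KPTC mice the share of ATM tumours was higher at 1000, 2000 and 5000 cells. At least 1000 cells were held by 38.01% of ATM tumours in the lowest mouse, 52.2% in the median and 97.3% in the highest, against 35.4%, 51.0% and 95.4% of inert tumours. The within-mouse difference was above 0 in 12 of 12 mice, at 3.02 ± 1.95 points (SD, n = 12; adjusted p = 0.00269, exact). At 2000 cells it was 2.64 ± 1.84 points (11 of 12, adjusted p = 0.00384, exact) and at 5000 cells 1.14 ± 1.23 points (9 of 12, adjusted p = 0.0168, exact). In KPTC 52.7% of all target shares were higher. The highest shares at 1000 cells, 97.3% and 95.4%, were those of KPTC replicate 12, whose smallest listed tumour held 982 cells.

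At 10000 cells the KPTC difference was 0.67 ± 1.08 points (adjusted p = 0.084, exact) and at 100000 cells 0.08 ± 0.30 points (adjusted p = 0.405, exact). Without KPTC replicate 2 the value at 10000 cells, 0.81 points, passed. The 3 calls were lost in the IW mice alone (2.18, 2.41 and 1.19 points, adjusted p = 0.0506 each, exact) and with barcodes listed in 1 mouse only (3.28, 1.95 and 0.28 points). Of the 3 sizes, that of 5000 cells fell the most under the last setting, which takes out more large ATM than inert tumours by construction. The difference at 5000 cells also missed the threshold at a minimum size of 1000 cells (0.93 points).

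In KLTC mice 39.2% of ATM tumours reached 1000 cells in the lowest mouse, 60% in the median and 81.0% in the highest, against 30.2%, 58.0% and 75.6% of inert tumours. The difference of 3.98 ± 4.74 points, above 0 in 10 of 13 mice, did not pass (adjusted p = 0.0882, exact). By this measure 0% of the target shares were higher in KLTC, though 11 of 55 had an unadjusted p below 0.05 by the exact sign-flip test. With each barcode kept only in its largest mouse, further ATM values passed. In KTC they were the shares at 2000 (5.91 points) and 5000 cells (2.21). In KPTC they were the share at 10000 cells (2.19) and the 95th percentile (0.44 on the log2 scale). In KLTC they were the shares at 1000, 2000 and 5000 cells (5.57, 7.35 and 5.88). This filter takes out smaller listings, and more from ATM than from inert tumours, with medians of 47.9% and 34.9% in KPTC and 57.9% and 49.5% in KLTC. These values are therefore no support for larger ATM tumours.

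**Figure D3:**
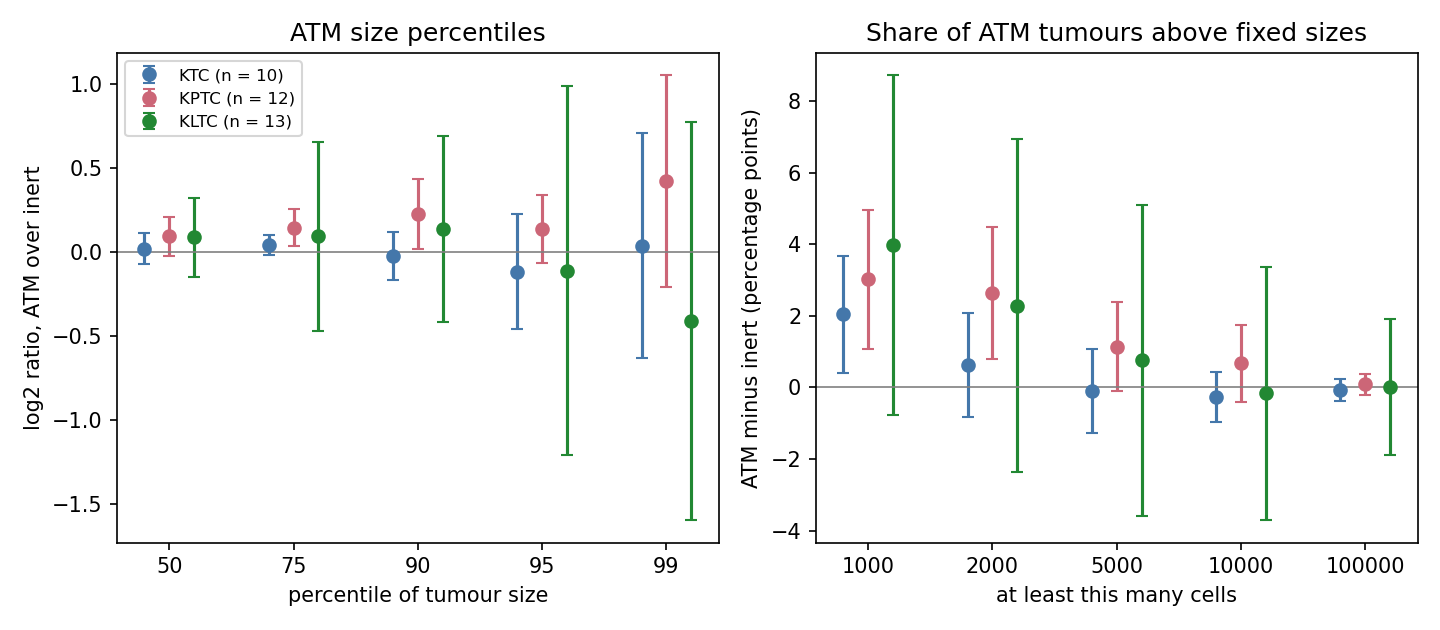
Mean and SD over mice of the log2 ratio of size percentiles of ATM to inert tumours (left) and of the difference in the percent of tumours at or above a fixed size (right), by percentile and by size in cells, in KTC, KPTC and KLTC mice. KPTC lies at 0.09, 0.14 and 0.23 for the 50th, 75th and 90th percentile, and the excess at 1000 cells is 2.04, 3.02 and 3.98 points in the 3 genotypes.

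The arithmetic mean, in which the largest tumours weigh most, gave no call for ATM in any genotype. The log2 ratio of cells per ATM tumour to cells per inert tumour averaged 0.19 ± 0.58 in KTC (6 of 10 mice above 0, adjusted p = 0.463, exact), -0.06 ± 0.90 in KPTC (5 of 12, adjusted p = 0.91, exact) and -0.21 ± 0.68 in KLTC (4 of 13, adjusted p = 0.722, exact). By this measure 18.2% of targets were higher in KTC, 0% in KPTC, where 2 of 11 had an unadjusted p under 0.05 in the exact sign-flip test, and 9.09% in KLTC.

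The largest single ATM tumour held 3.89% of all ATM cells in the lowest KTC mouse, 20.8% in the median and 74.5% in the highest. In KPTC it held 4.41%, 18.9% and 64.4%, and in KLTC 5.54%, 18.2% and 34.7%. The 74.5% was the tumour of KTC replicate 1 whose barcode is printed above, and the cells per ATM tumour of that mouse were 2.81 times those of its inert tumours, the highest ratio among the KTC mice. In a median lung of any genotype, 1 barcode thus held from 18.2% to 20.8% of the ATM cells.

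The difference between p53-deleted and p53-intact tumours was then tested on the per-mouse ratios, by permuting the genotype labels of mice. The size effect was larger in KPTC than in KTC by 0.13 ± 0.06 (SE, 12 against 10 mice, 1.10-fold). The permutation p was 0.0352 and the adjusted p over 11 targets 0.0553, so it did not pass, while 27.3% of the targets were larger in KPTC. Of the 22 fits that leave out a mouse, 5 passed, those without KTC replicate 3 or 10 or KPTC replicate 3, 8 or 10, at 0.14 to 0.17. It also passed in the IW mice alone (0.13, adjusted p = 0.041, exact permutation of 7 against 8 mice), without the largest tumour of each label and mouse (0.15, adjusted p = 0.037, permutation test) and with the P53 tumours of KPTC joined to the inert ones (0.14, adjusted p = 0.0448, permutation test). The estimate stayed between 0.11 and 0.17 in all fits that leave out a mouse, and the threshold lay within this range. With larger minimum sizes the difference did not pass. It was 0.15 at 1000 cells (adjusted p = 0.162, permutation test) and 0.068 at 1500 cells (adjusted p = 0.712). At 5000 cells its sign changed (-0.13, adjusted p = 0.722, permutation test). Nor did the difference pass without matched tumours (0.14), with each barcode kept only in its largest mouse (0.14) or with barcodes listed in 1 mouse only (0.12).

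At the 90th percentile the genotypes differed. The 90th percentile of ATM tumours ran from 1777 cells through a median of 6127 to 9227 in KTC, where inert tumours had 1900, 5959 and 8443. In KPTC it ran from 2415 through 4572 to 12919, where inert tumours had 2341, 3337 and 10732. The log2 ratio spanned -0.29 to 0.21 in KTC, above 0 in 5 of 10 mice, and -0.05 to 0.68 in KPTC, above 0 in 11 of 12. The ranges overlapped between -0.05 and 0.21.

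The difference at the 90th percentile was 0.25 ± 0.07 (SE, 1.19-fold; permutation p = 0.00316, adjusted p = 0.0434 over 11 targets and 5 percentiles), and 3.64% of the target percentiles were higher in KPTC. The call was kept without KTC replicate 6 or 10 or KPTC replicate 3, 8 or 9 and lost without any of the other 17 mice, with values of 0.21 to 0.28 and an adjusted p of at most 0.0879 by permutation. It was lost under each of the 5 other settings tried: in the IW mice alone (0.21), without matched tumours (0.24), at a minimum size of 1000 cells (0.27), with each barcode kept only in its largest mouse (0.28, adjusted p = 0.18, permutation test) and with barcodes listed in 1 mouse only (0.18, adjusted p = 0.367). This comparison of percentiles was added after the data were seen.

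No other percentile passed between KPTC and KTC. The 75th differed by 0.10 (adjusted p = 0.0897, permutation test), the 95th by 0.25 (adjusted p = 0.124) and the 99th by 0.38 (adjusted p = 0.318). Without KTC replicate 10 the 75th (0.12) and the 95th (0.31) passed, and at a minimum size of 1000 cells the 75th did (0.22, adjusted p = 0.0252, permutation test). The share of ATM tumours of at least 2000 cells, less that of inert tumours, was higher in KPTC by 2.02 points (adjusted p = 0.0822, permutation test) and passed without KTC replicate 10 (2.37) or KPTC replicate 8 (2.22). By shares 0% of the target values were higher in KPTC, though 18 of 55 had an unadjusted p below 0.05 in the permutation test.

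KLTC, the other p53-intact genotype, gave no size difference from either. The size effect was 0.17 ± 0.17 (SE) higher in KPTC than in KLTC (adjusted p = 0.562, permutation test), where 18.2% of targets were higher. It was -0.04 ± 0.17 in KLTC minus KTC (adjusted p = 0.912), where 18.2% of targets were lower. Against KTC and KLTC mice together (n = 23), KPTC lay 0.16 ± 0.10 higher (adjusted p = 0.889), and 0% of the targets were higher, and 0 had an unadjusted p below 0.05 in the permutation test. These comparisons share mice and are not independent.

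Tumour number was compared as the log2 ratio of ATM to inert tumours in a mouse, between genotypes only, since the makeup of the virus pool is not known. KTC mice held 0.162 ATM tumours per inert tumour at the lowest, 0.295 in the median and 0.317 at the highest. KPTC mice held 0.193, 0.265 and 0.302, and KLTC mice 0.111, 0.285 and 0.351. The medians differed little, and the ranges overlapped.

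As log2 ratios, the means were -1.83 ± 0.29 in KTC, -1.95 ± 0.18 in KPTC and -1.95 ± 0.43 in KLTC (SD). KPTC minus KTC was -0.12 ± 0.10 (SE, adjusted p = 0.933, permutation test), and 9.09% of the targets were lower in KPTC. The KTC value rested on replicate 9, an MW mouse with 78 ATM and 482 inert tumours and a log2 ratio of -2.63, while the other 9 KTC mice lay between -1.83 and -1.66. Without that mouse ATM tumours per inert tumour were fewer in KPTC than in KTC. The difference was -0.21 ± 0.05 on the log2 scale, 0.864-fold (adjusted p = 0.0046, permutation test), and ATM was 1 of 2 targets that were then lower.

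Among the IW mice, which leave out both MW mice, KPTC minus KTC was -0.22 ± 0.07 (SE, 7 against 8 mice; exact permutation p = 0.000155, adjusted p = 0.00171). In that subset 2 of the 11 targets were lower and the median over targets was -0.085. The 2 sets of values did not overlap, although the highest of the KPTC mice, at -1.833, lay next to the lowest of the KTC mice, at -1.828, and this p is the smallest that the enumeration gives for these numbers of mice. With all mice, KPTC minus KLTC was -0.01 ± 0.13 and KLTC minus KTC -0.12 ± 0.15 in number, and neither passed (adjusted p = 0.965 and 0.837, permutation test). KLTC, which keeps p53, also lay below KTC in the IW mice (-0.35 ± 0.21, adjusted p = 0.0778) and without KTC replicate 9 (-0.20 ± 0.12, adjusted p = 0.273, permutation test). In these settings KPTC differed from both p53-intact genotypes by -0.05 and -0.09 (adjusted p = 0.901 and 0.751, permutation test). The lower number in KPTC than in KTC was thus not shown to be particular to p53-deleted mice.

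**Figure D4:**
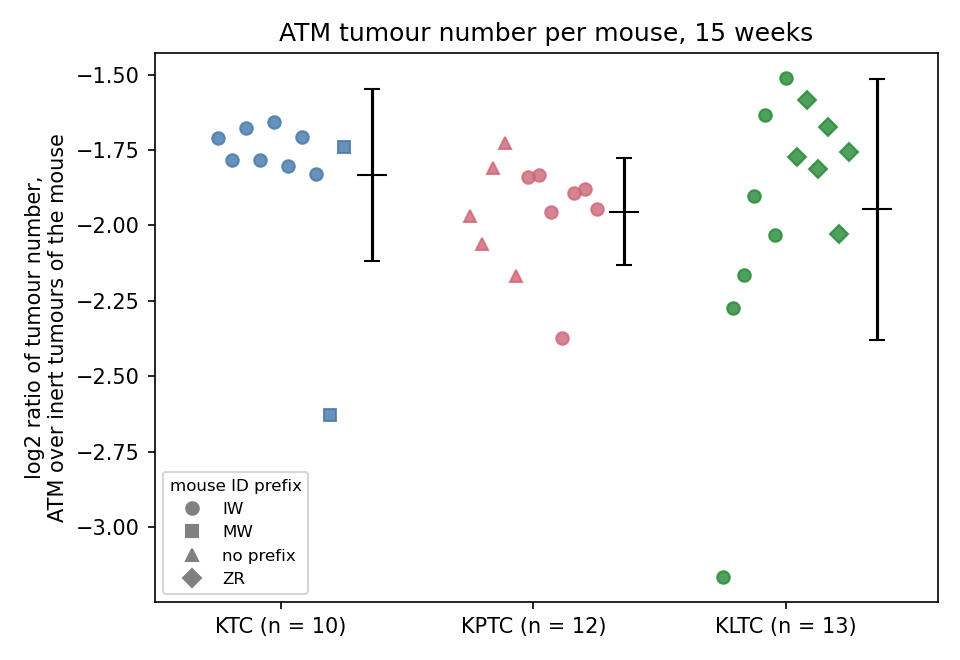
Log2 ratio of the number of ATM to inert tumours in a mouse (vertical axis) in KTC, KPTC and KLTC mice (horizontal axis), with a point per mouse shaped by the opening letters of its name and bars for the mean and SD. The means are -1.83, -1.95 and -1.95, and KTC replicate 9 lies at -2.63, apart from the other KTC mice.

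The share of a lung's listed cells joins number and size. ATM tumours made up 3.57% of the listed cells in the lowest KTC mouse, 5.30% in the median and 10.5% in the highest. The values were 1.66%, 5.71% and 14.9% in KPTC and 2.06%, 6.22% and 11.9% in KLTC. Their median share of listed tumours was 7.90%, 7.49% and 7.47%, so in the median mouse ATM held a smaller share of cells than of tumours in each genotype.

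Against the summed cells of inert tumours, the log2 ratio differed by -0.37 ± 0.36 (SE) between KPTC and KTC (adjusted p = 0.549, permutation test), where 9.09% of the targets were lower. It differed by -0.51 ± 0.34 between KLTC and KTC (adjusted p = 0.439) and by 0.14 ± 0.37 between KPTC and KLTC (adjusted p = 0.808). The highest KPTC share of cells, 14.9%, was that of replicate 11, in which 1 ATM tumour of 10957411 cells held 64.4% of the ATM cells. Its barcode, shown because it was listed in more mice than those above, was found in 22 other lungs at 631 to 70427 cells.
KPTC replicate 11: aaGAGAAttCCCGAaaCTGGA

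The other targets of the p53 pathway in the pool were P53 and Cdkn2a. P53 tumours had size effects of 0.06, -0.03 and -0.18 in KTC, KPTC and KLTC, and none passed. In KPTC the sgRNA meets a gene that Cre already deletes. There P53 tumours were called smaller than inert tumours under 5 other settings. They passed with a minimum of 1000 (-0.11) or 1500 cells (-0.15) and with the largest tumours left out (-0.058). They also passed without matched tumours (-0.061) and with each barcode in its largest mouse (-0.27). These last filters take out smaller listings of shared barcodes. P53 barcodes were shared less often (9.47%) than inert ones (23.6%), so -0.061 and -0.27 are no support for smaller P53 tumours. Cdkn2a tumours had 0.11, 0.19 and 0.34, of which the KPTC value passed (adjusted p = 0.0121, exact), though not in the IW mice alone (0.18) or at a minimum of 5000 cells (0.47). The KLTC value passed without matched tumours (0.54) or without KLTC replicate 13 (0.46). Of the 3 genes of this list, 0 were larger in KTC, 2 in KPTC and 0 in KLTC, with medians of 0.06, 0.14 and -0.03, beside 5, 8 and 1 of all 11 targets and medians of 0.11, 0.16 and 0.25. When each barcode was kept only in its largest mouse, Cdkn2a turned to -0.20 in KTC and -0.07 in KPTC and P53 to -0.22 in KTC. Cdkn2a barcodes were shared the least of all labels (5.09%), so these values are no support for smaller tumours either.

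The targets whose mean size effects over the 3 genotypes lay nearest to those of ATM were P53, with a root mean square difference of 0.13 on the log2 scale, and the splicing regulator Rbm10, with 0.17. Rbm10 had 0.26, 0.10 and 0.12, and of these the KTC value passed (adjusted p = 0.00716, exact), but not at a minimum of 1500 (0.33) or 5000 cells (0.26). The KPTC value passed at a minimum of 1000 cells (0.19) and without KPTC replicate 1 (0.12). The third, Keap1, was at 0.17 as well and could not be told from Rbm10 by this measure.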

How the data were processed

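The authors' deposited table gives, per mouse, target label and barcode, the absolute size of a tumour in cells, a signal derived from barcode reads. The aligner, read filters and size standard are not given in the sources here; read depth is unknown, so errors are spreads between mice. Genotype, time and treatment of each mouse came from the labels, and mice were matched to the table by name. The labels ATM, P53 and Lkb1 were paired with the mouse genes Atm, Trp53 and Stk11 through the RefSeq gene table of GRCm38.p6.

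Tumours of at least 500 cells were used, with at least 10 per label and mouse. The log-normal mean was the exponential of the mean of log sizes after adding 0.5 of their variance. Each value was set against inert tumours of the same mouse, and the mouse was the replicate. Within a genotype, the mean over mice was tested by flipping signs in all possible ways (exact, two-sided), whose smallest p is 0.00195 with 10 mice, 0.00049 with 12 and 0.00024 with 13. Between genotypes, mouse labels were permuted 100000 times, or enumerated where fewer relabellings exist, two-sided. P-values were adjusted by Benjamini-Hochberg over all 11 targets, and over 55 tests for percentiles or fixed sizes, with a threshold of 0.05. The targets of a mouse are set against the same inert tumours. Python 3.11.15, numpy 2.4.6 and pandas 2.3.3 were used, and the procedure was tested on simulated data. The members, the p53 pathway list (P53, ATM, Cdkn2a), the rule for named genes (ATM, this list and the 2 targets nearest to ATM in mean size effect) and the tests were chosen with earlier results of these data known. Alternatives were other minimum sizes, IW mice, matched or largest tumours left out, other references, weights and statistics, and each mouse left out. Keeping each barcode only in its largest mouse, keeping barcodes listed in 1 mouse and testing percentiles and shares between genotypes were added after the data were seen.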

Additional observations from a re-analysis of the deposited data

Results flagged for a closer look

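The number of ATM tumours in KTC replicate 9, at a log2 ratio of -2.63 to its inert tumours, lay far below those of the other 9 KTC mice. This mouse had the fewest listed tumours of its genotype, 1271, and is 1 of 2 MW mice. Its part in the comparison of number between KPTC and KTC is given in the report, with the value without it.

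The share of ATM tumours of at least 100000 cells, less that of inert tumours, was 0.683 percentage points in KTC replicate 3, far above the other KTC mice, of which none exceeded 0.115. This mouse had 311 ATM tumours. Gaps of this kind were looked for in KTC alone, since the other groups have more than 10 mice. Chance gives them in about 1 in 20 of the quantities searched. Those were size effect, cells per tumour, number, summed cells, 5 percentiles and 5 shares, so a gap by chance in 1 of them is likely.

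The log2 ratio at the 90th percentile differed between KPTC and KTC by 0.25 in the permutation test of the difference itself. It did not pass under any of the 5 other settings tried for it, nor without any of 17 of the 22 mice, as the report lists.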

How the results depend on the processing

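The size effect in KPTC and the 90th percentile between KPTC and KTC depend on the choices named in the report, and KLTC on few tumours per mouse (32 in the lowest). The depth in reads is unknown. Without matched tumours the 18 values of ATM size effect, cells per tumour, number and summed cells kept their direction and side of the threshold. Of the 49 single percentiles, shares and named targets under that setting, 1 lost its call, 4 gained one and 5 moved, and the report names the 5 changed calls. The values below are log2 ratios of the 18 that changed sign or call, with reversed single values, and the cause was not tested unless a filter's own construction shows it.

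The size effect in KTC was -0.067 at a minimum of 1000 cells, -0.050 at 1500, -0.0085 in IW mice, -0.038 without the largest tumours, -0.014 with barcodes listed in 1 mouse, -0.014 with mice weighted by ATM tumours and 0.26 with each barcode in its largest mouse, where it passed. In KPTC it was 0.079 at 1000 cells, 0.018 at 1500, -0.021 at 5000, 0.12 in IW mice and 0.11 with barcodes listed in 1 mouse, and no longer passed. In KLTC it was 0.028 with joined controls (the inert tumours and those of the target the genotype deletes), 0.33 with each barcode in its largest mouse and 0.016 with weighted mice. Cells per tumour were -0.16 in KTC without the largest tumours and -0.060 with barcodes listed in 1 mouse. In KPTC they were 0.13 with each barcode in its largest mouse and 0.30 with barcodes listed in 1 mouse, and in KLTC 0.054 with the former. The former setting also gave 2.21 points for the KTC share of at least 5000 cells. It gave -0.22 for P53 in KTC, and -0.20 and -0.066 for Cdkn2a in KTC and KPTC. Under it a label's values shift with how often its barcodes are shared, so they are no support for a difference. The 90th percentile in KPTC was -0.0042 at a minimum of 1500 cells and -0.061 at 5000.

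Between KPTC and KTC, the size effect differed by -0.13 at 5000 cells and passed at 0.13 in IW mice, 0.15 without the largest tumours and 0.14 with joined controls. Number differed by 0.089 at 5000 cells and -0.22 in IW mice, where it passed, and summed cells by 0.21 with barcodes listed in 1 mouse. KLTC minus KTC in size was 0.0030 in IW mice, 0.020 with joined controls and 0.068 with each barcode in its largest mouse. KPTC minus KLTC in number was 0.038 at 1500 cells, 0.13 at 5000, 0.14 in IW mice and 0.055 against all other targets, and in summed cells -0.032 against all other targets. KPTC minus both p53-intact genotypes was 0.012 in number at 1500 cells, 0.11 at 5000, and 0.011 in summed cells without the largest tumours and 0.33 with barcodes listed in 1 mouse.

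Leaving out each mouse in turn gave ranges that cross 0 or the threshold for 9 of the comparisons. They were -0.025 to 0.026 for the size effect in KTC, -0.12 to 0.043 for that in KLTC, and -0.18 to 0.093 for cells per tumour in KPTC. Between genotypes they were 0.11 to 0.17 in size and -0.21 to -0.085 in number for KPTC minus KTC, -0.13 to 0.035 in size for KLTC minus KTC, -0.11 to 0.031 in number and -0.047 to 0.28 in summed cells for KPTC minus KLTC, and -0.21 to 0.059 in summed cells against both p53-intact genotypes.

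Mice could not be paired between genotypes because the replicate numbers were given in accession order and each genotype has its own mice. Shares of at least 1000 cells were not recomputed at a minimum of 1000 cells, where they are 100% by construction.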

Other observations

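ATM and APC shared a feature of their barcodes that no other label had to the same degree. The 25301 ATM tumours carried 14253 barcodes and the 27395 APC tumours 15181, of which 41.1% and 39.7% were listed in 2 or more mice, while the other 9 targets lay between 5.09% and 18.8%. Cdkn2a, with 17815 tumours, carried 15920 barcodes. Keeping each barcode only in its largest mouse left out a median of 41.2% of ATM and 28.9% of inert tumours in KTC, and the ATM size effect was 0.26 there under this setting, against 0.01 with all tumours. With barcodes listed in 1 mouse only it was -0.01. The former filter takes out more of the smaller ATM than inert listings, so its 0.26 is no support for a size effect. The latter takes out more large ATM than inert tumours, so its -0.01 cannot decide on one either. The part of barcode sharing in the size effects was not tested beyond these settings.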
